A study of Mus musculus with 15 samples.

Results

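The 39 genes described here are genes of radial glia, neural stem cells and astrocytes, listed by name and found by their Ensembl identifiers among the 53801 genes of the count table. All of the 39 genes were present, and all passed the filter on low counts in each comparison. They were measured by RNA sequencing in 15 libraries of adult neural stem cells (aNSCs), cells isolated from the subventricular zone of the mouse brain and grown in suspension with EGF and bFGF. The mice were 2 months old and of the strain C57BL6/J-129sv. The comparisons ask how these genes respond when Trrap, a scaffold protein of histone acetyltransferase complexes, is deleted in culture, and how they respond to the inducing drug in cultures with a single floxed allele.

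Every culture, controls included, carried the Rosa26-CreERT2 transgene, a Cre recombinase driven from the broadly active Rosa26 locus and switched on by 4-hydroxytamoxifen (4-OHT). The Fl/+ untreated group held 5 libraries from mice 19, 24, 26, 35 and 36, whose Trrap genotype was Fl/+ and which received no drug. The Fl/+ 4-OHT group held 5 libraries of the same 5 mice after 4-OHT, which is directed at their single floxed allele, so that the drug, active Cre and the loss of that allele cannot be told apart in this group. The Fl/Fl 4-OHT group held 5 libraries from mice 27, 28, 29, 37 and 39, with both alleles floxed and the same drug treatment. The labels give 5 days with the drug, whereas the study's methods describe a shorter exposure followed by fresh medium, and the concentrations they give also differ, so the exposure behind every 4-OHT value is uncertain and no dose is given. An untreated Fl/Fl group was not analysed here, so genotype was compared only between treated cultures of different mice. "Trrap deletion" below compares Fl/Fl 4-OHT with Fl/+ 4-OHT, "4-OHT" compares Fl/+ 4-OHT with Fl/+ untreated, and "deletion plus 4-OHT" compares Fl/Fl 4-OHT with Fl/+ untreated. Any pair of these comparisons shares a group of libraries.

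Neural stem cells of the adult subventricular zone are specialised astrocytes: they keep the glutamate transporters, intermediate filaments and lipid carriers of the astrocyte lineage and can divide to give neurons and glia. Much of the list is therefore shared between resting stem cells and mature astrocytes. When astrocytes react to injury or inflammation they typically raise the filament proteins GFAP and vimentin and change their extracellular matrix. In bulk RNA of such cultures, a smaller share of cells of a type and less RNA of a gene in each cell cannot be told apart.

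The libraries held 25720034 to 32187097 counts assigned to genes. Trrap itself measured 141 to 202 CPM (counts scaled for library size, with TMM factors) in the Fl/+ 4-OHT libraries and 83.2 to 144 CPM in the Fl/Fl 4-OHT libraries. The library labelled Fl/Fl 4-OHT 29 had the 144 CPM and lay inside the Fl/+ 4-OHT range. Trrap was lower after deletion by a log2 fold change of -0.64 ± 0.16 (SE, n = 5 per group, adjusted p = 0.0115 by edgeR's quasi-likelihood test). Library Fl/Fl 4-OHT 39 was labelled female but had 54.3 CPM of the Y-linked Ddx3y and 0.31 CPM of Xist, and Fl/+ 4-OHT 36, labelled male, had 75.6 CPM of Xist beside 53.6 CPM of Ddx3y. The untreated culture of mouse 36 had 5.88 CPM of Xist, and the libraries of other mice labelled male had at most 0.551 CPM. Ddx3y measured 23.7 CPM in library 29 and 36.3 to 57.0 CPM in the other libraries labelled male. Library Fl/Fl 4-OHT 37 stood apart from its group in several of the 39 genes. Results for the 39 genes whose call changed without library 29, 37 or 39 are given below with and without it, as are the larger shifts of those described by library. For Trrap and other single genes only fits of all libraries are given.

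Markers of neural stem or progenitor cells and of astrocytes were detected in every group, with summed levels of 5735 to 11115 CPM and 3451 to 7021 CPM. The lineage of oligodendrocytes was also present at 2999 to 4481 CPM, and neuronal markers summed to 557 to 1097 CPM. Microglial markers summed to at most 2.02 CPM, with Cx3cr1, Tmem119, Aif1, C1qa and Ptprc at no more than 3 counts in each group's libraries, endothelial and mural markers to at most 10.2 CPM and fibroblast markers to at most 3.35 CPM. Markers of dividing cells summed to 485 to 1665 CPM in Fl/+ untreated, 902 to 1528 in Fl/+ 4-OHT and 457 to 978 in Fl/Fl 4-OHT. Of these 6 markers 3 were called lower after deletion (median log2 fold change -0.69), 0 after 4-OHT and 1 in deletion plus 4-OHT. Of the 8 stem or progenitor markers, which include Nes, Fabp7 and Slc1a3, 2, 2 and 4 were called lower. None of either list was called higher. Of all genes 15.0%, 6.45% and 15.1% were called lower in these comparisons. Mitochondrial genes took 1.72 to 3.56% of counts in Fl/+ untreated, 0.849 to 1.74% in Fl/+ 4-OHT and 1.36 to 2.19% in Fl/Fl 4-OHT libraries. The part of these differences in the results below was not tested.

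Relative to exon length, Apoe and Fabp7 were the most abundant of the 39 transcripts in the untreated cultures. Apoe, the lipid carrier of astrocytes, averaged 3131 ± 1613 CPM per kb of exon (SD, n = 5) and Fabp7, a fatty acid-binding protein of radial glia, 2862 ± 618. Their ranges overlapped, so the order of this pair was not resolved. A step lower came the metallothionein Mt2 at 755 ± 330, the protease inhibitor Cst3 at 697 ± 110 and the metallothionein Mt1 at 666 ± 277 CPM per kb, again with overlapping ranges.

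The classical astrocyte filament Gfap was near the bottom of the order, at 13.5 ± 10.2 CPM per kb in the untreated cultures, while the stem cell filament Nes stood at 153 ± 39.0 and Vim at 532 ± 69.1. Prom1, which encodes the stem cell surface protein CD133, averaged 2.07 ± 1.3 CPM per kb. The lowest level was that of the matrix protein Thbs4, at 0.419 ± 0.102. Lengths from the longest transcript in place of all exons kept Apoe and Fabp7 in the first places and Gfap in the same place, 36 of 39. The places after Fabp7 changed: Cst3 was then 3, Mt2 4, Vim 5, Mt3 6 and Mt1 7.

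**Figure D1:**
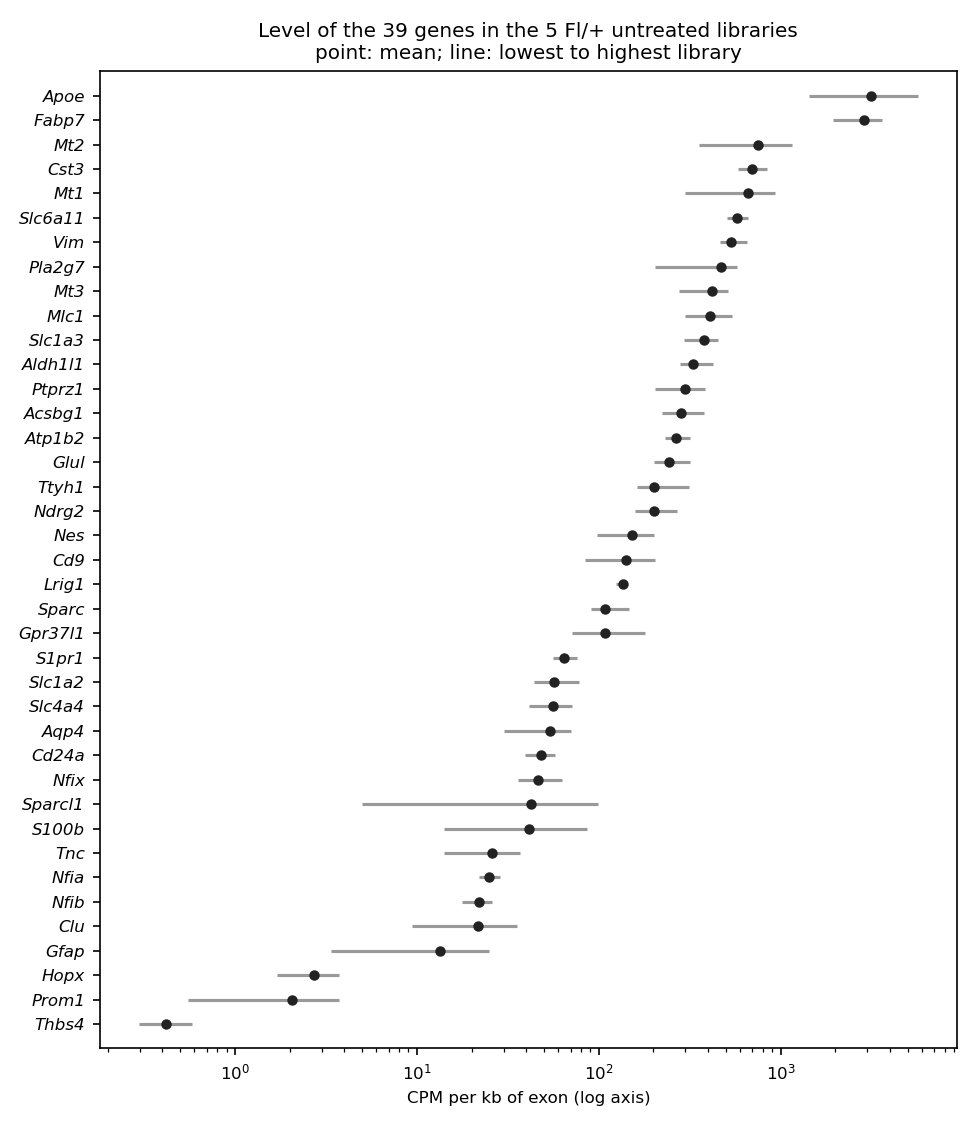
Level of each of the 39 genes in the Fl/+ untreated libraries, in CPM per kb of exon on a log axis; the point is the mean and the line runs from the lowest to the highest of the 5 libraries. Apoe and Fabp7 lead at 3131 and 2862, Gfap lies at 13.5 and Thbs4 is lowest at 0.419.

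The genes also differed in how steady they were among cultures given the same treatment. The highest library of a group exceeded the lowest by a median of 1.86-fold over the 39 genes in Fl/+ untreated, 1.7-fold in Fl/+ 4-OHT and 1.81-fold in Fl/Fl 4-OHT. The growth factor receptor inhibitor Lrig1 had the smallest ratio in both Fl/+ groups, 1.14 and 1.17, and in Fl/Fl 4-OHT Lrig1 and Glul both had 1.13. The matrix protein Sparcl1 spanned 19.6-fold and Gfap 7.43-fold among the untreated cultures, and Gfap spanned 20.5-fold among the Fl/+ 4-OHT cultures.

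After Trrap deletion few of the 39 genes changed. Mlc1, Acsbg1 and Mt3 rose, and Cd24a, Prom1 and Fabp7 fell, while the other 33 did not pass the test. The 6 called genes are 15.4% of the list, whereas 31.7% of the 15036 genes tested were called (adjusted p under 0.05). The share called higher was 7.69% of the list against 16.8% of all genes, and the share called lower was 7.69% against 15.0%. In 5 of the 39 genes the groups did not overlap, as against 22.7% of all genes. The median log2 fold change was 0.14 over the list and 0.02 over all genes.

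The count of called genes after deletion moved with library Fl/Fl 4-OHT 37. Without it, 2 genes were called higher and 6 lower (20.5% of the list against 29.2% of all genes): Aqp4, Aldh1l1 and Cd9 were then called lower and Mt3 was no longer called. Without library 29 the counts were 3 and 3 (15.4% against 28.3%), and without library 39 they were 2 and 3 (12.8% against 26.7%), with Mt3 again lost. Without library Fl/+ 4-OHT 26, Apoe and Glul were added to the genes called higher, which made 5 of 39, against 15.7% of all genes.

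After 4-OHT treatment of the Fl/+ cultures 13 of the 39 genes passed the test, 10 of them lower. Gfap, Tnc and Vim rose, and 10 genes fell: Slc1a3, Slc6a11, Mlc1, Ttyh1, Apoe, Pla2g7, S100b, Ndrg2, Cst3 and Mt3. The 13 are 33.3% of the list, against 13.8% of the 14821 genes tested. The share called lower was 25.6% of the list and 6.45% of all genes, whereas the share called higher was 7.69% and 7.34%. The groups did not overlap in 5 of the 39 genes, and in 11.9% of all genes. The median log2 fold change was -0.18 over the list and -0.01 over all genes.

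With the mouse as a block, which uses the pairing of the Fl/+ cultures, 6 genes were called higher and 13 lower, 48.7% of the list against 25.7% of all genes (higher 13.8%, lower 11.9%). The block added Prom1, Clu and Aldh1l1 as higher and Glul, S1pr1 and Nfia as lower, and no gene was lost. The unblocked counts rested on single libraries: without Fl/+ 4-OHT 19, 35 or 36 only 1 gene was called higher, Tnc, and without Fl/+ 4-OHT 19 only 5 were called lower, namely Slc1a3, Slc6a11, Apoe, Pla2g7 and Cst3. Calls over all genes also became fewer without these libraries: 5.18%, 4.97% and 5.74% were then called higher, and 3.27% were called lower without Fl/+ 4-OHT 19.

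In the comparison of deletion plus 4-OHT, Gfap, Clu, Tnc and Lrig1 rose and 11 genes fell, among them Cd24a, S100b, Ndrg2, Apoe, Pla2g7 and Cst3. The 15 called genes are 38.5% of the list, against 30.7% of 15032 genes. Of the list 10.3% was called higher and 28.2% lower, against 15.7% and 15.1% of all genes, and the groups did not overlap in 11 of the 39 genes and in 22.9% of all genes. The median log2 fold change was -0.12 over the list and 0.00 over all genes. Without library 37 the counts were 3 higher and 11 lower (35.9% against 26.5% of all genes), and without library 29 or 39 they were 3 and 10 (33.3% against 25.7% and 25.9%).

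Scaling by library size alone gave 3 members higher and 8 lower after 4-OHT and 5 and 10 in deletion plus 4-OHT. It moved the split over all genes more: 1396 were then higher and 712 lower after 4-OHT, in place of 1088 and 956, and 3150 and 1603 in deletion plus 4-OHT, in place of 2357 and 2263. Across the 3 comparisons 20 of the 39 genes were called at least once and 19 never. Of those 20, Mlc1 and Mt3 were called both after deletion and after 4-OHT, in opposite directions, in comparisons that share the Fl/+ 4-OHT libraries.

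**Figure D2:**
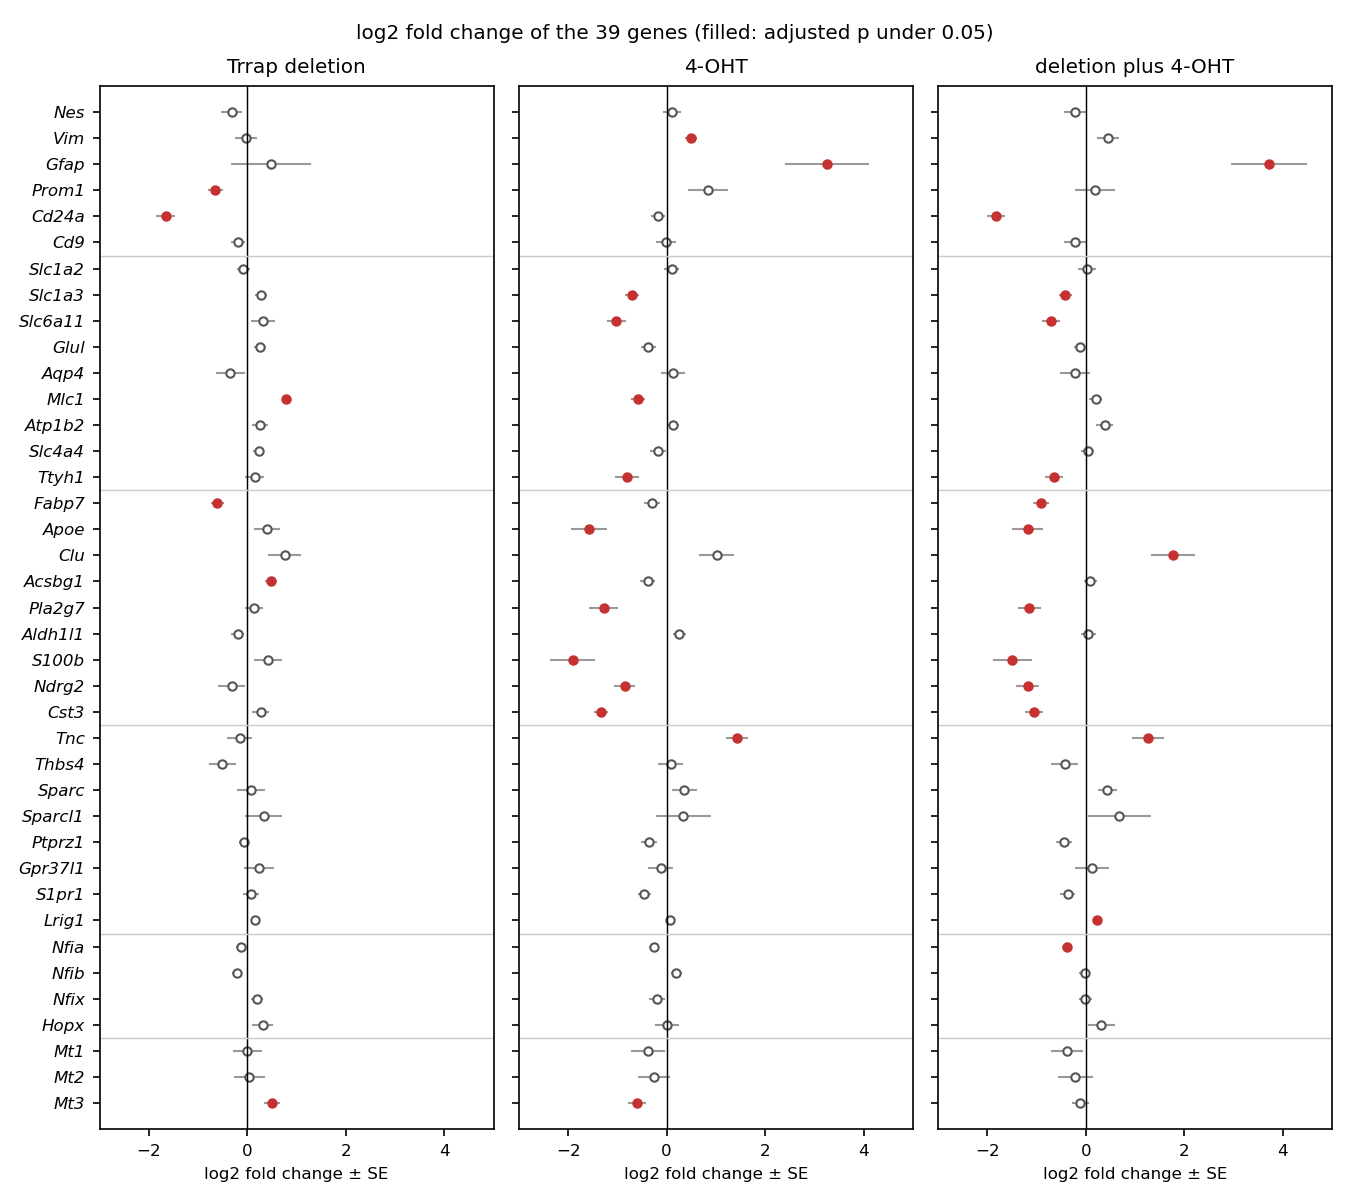
Log2 fold change of each gene in the 3 comparisons (Trrap deletion, 4-OHT, deletion plus 4-OHT), with the SE as a bar; filled points passed an adjusted p of 0.05 and grey lines divide the roles. After deletion 6 points are filled and Cd24a is the lowest at -1.66; after 4-OHT 13 are filled, from S100b at -1.91 to Gfap at 3.25.

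Among the intermediate filaments and stem cell surface proteins, Gfap had the largest rise of the list after 4-OHT. In the order of mice 19, 24, 26, 35 and 36, used for every Fl/+ group below, Gfap measured 106, 21.3, 98.4, 14.3 and 45.5 CPM untreated and 824, 63.2, 102, 491 and 1295 CPM with 4-OHT. In the order 27, 28, 29, 37 and 39, used for every Fl/Fl group, it measured 234, 529, 349, 2267 and 415 CPM. Gfap was higher with the drug in all 5 Fl/+ mice, but the Fl/+ groups overlapped, and in mouse 26 the level scarcely moved (a log2 difference of 0.05).

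Gfap rose by a log2 fold change of 3.25 ± 0.851 after 4-OHT (SE, n = 5 per group, adjusted p = 0.0283) and 3.72 ± 0.772 in deletion plus 4-OHT (adjusted p = 0.00441), or 2.74 ± 0.551 without library 37 (adjusted p = 0.00556). The first call, without the block, was lost without Fl/+ 4-OHT 19, 35 or 36, without Fl/+ untreated 24 or 35, or with the labelled sex as a covariate, with adjusted p up to 0.0619. With the mouse as a block the rise after 4-OHT was 2.91 ± 0.763 (adjusted p = 0.0255). After deletion Gfap differed by 0.48 ± 0.816 (adjusted p = 0.687), and without library 37 by -0.52 ± 0.72. The Fl/Fl and Fl/+ 4-OHT ranges overlapped, and all 5 Fl/Fl libraries lay above all 5 untreated ones.

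Vim, the filament protein that accompanies GFAP, measured 2401, 2212, 2471, 2458 and 3081 CPM untreated and 3951, 2873, 3432, 3665 and 4064 CPM with 4-OHT. It was higher with the drug in all 5 mice, by a log2 fold change of 0.49 ± 0.122 (adjusted p = 0.0235), although the highest untreated library exceeded the lowest treated one. The unblocked call was lost without Fl/+ 4-OHT 19, 35 or 36 or without Fl/+ untreated 19 or 26, with adjusted p up to 0.0594, and with a dispersion estimated over all 15 libraries (adjusted p = 0.116). With the mouse as a block the rise was 0.48 ± 0.091 (adjusted p = 0.0069). In Fl/Fl 4-OHT library 37 reached 6025 CPM and the other 4 ran from 2450 to 3323 CPM, so that the difference after deletion was -0.03 ± 0.225 (adjusted p = 0.925) with it and -0.34 ± 0.124 (adjusted p = 0.0633) without it. In deletion plus 4-OHT these were 0.45 ± 0.229 and 0.16 ± 0.128, neither called.

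Nes, the neural stem cell filament nestin, was not called in any comparison. It measured 920, 630, 921, 1142 and 1288 CPM untreated, 1153, 817, 936, 1392 and 1095 with 4-OHT, and 874, 686, 495, 1025 and 1185 in Fl/Fl 4-OHT. All 3 ranges overlapped. None passed the test, with a log2 fold change of -0.32 ± 0.217 after deletion (adjusted p = 0.282), 0.11 ± 0.191 after 4-OHT (0.732) and -0.21 ± 0.24 in deletion plus 4-OHT (0.541). After deletion it was -0.19 without library 29, -0.41 without library 37 and -0.48 without library 39, and in deletion plus 4-OHT -0.06, -0.29 and -0.36, none of them called.

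Cd24a, a glycosylphosphatidylinositol-anchored surface protein of neuroblasts and ependymal cells, showed the largest change of the list after deletion. It measured 110, 102, 149, 130 and 126 CPM untreated and 125, 77.0, 107, 132 and 119 with 4-OHT. In Fl/Fl 4-OHT it measured 34.9, 27.6, 23.8, 40.5 and 48.1 CPM, so that every Fl/Fl library lay below every Fl/+ library of either treatment.

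Cd24a fell, with a log2 fold change of -1.66 ± 0.194 after deletion (SE, n = 5 per group, adjusted p = 0.00023) and -1.83 ± 0.185 in deletion plus 4-OHT (adjusted p = 0.000109). After 4-OHT it was -0.17 ± 0.144 (adjusted p = 0.471). The smallest size after leaving out any library was -1.56, without library 29, and the call held in all 18 alternatives. Markers of ependymal cells summed to 29.5 to 67.3 CPM in Fl/+ untreated, 41.3 to 93.9 in Fl/+ 4-OHT and 78.9 to 108 in Fl/Fl 4-OHT, mostly Foxj1, with Tmem212 at 0 in every group. Of the 4 tested, 1 rose after deletion (median log2 fold change 1.05, against 16.8% of all genes called higher) and 3 rose in deletion plus 4-OHT (median 1.59, against 15.7%), and none fell in either. After 4-OHT 1 of the 3 ependymal markers tested fell and none rose (median 0.32), against 6.45% and 7.34% of all genes. The neuronal markers Dcx, Tubb3, Map2, Rbfox3, Syt1, Snap25 and Stmn2 summed to 818 to 1097 CPM in Fl/+ untreated, 821 to 1017 in Fl/+ 4-OHT and 557 to 816 in Fl/Fl 4-OHT. Of the 6 tested, 2 were called lower after deletion, against 15.0% of all genes. In deletion plus 4-OHT 5 of the 6 were called lower, against 15.1%, with a median log2 fold change of -1.26; the part of this in the level of Cd24a was not tested.

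Prom1 measured 20.8, 15.4, 26.7, 7.45 and 3.97 CPM untreated, 29.2, 27.5, 33.6, 25.5 and 19.8 with 4-OHT, and 14.1, 19.6, 14.9, 18.5 and 18.0 in Fl/Fl 4-OHT. After deletion the groups did not overlap, by the narrow margin between 19.6 and 19.8 CPM, and the log2 fold change was -0.65 ± 0.149 (adjusted p = 0.00709). The call was lost when the dispersion was estimated over all 15 libraries (adjusted p = 0.184). After 4-OHT Prom1 was higher in all 5 mice, most in mice 35 and 36, which had begun lowest, with a blocked log2 fold change of 1.08 ± 0.278 (adjusted p = 0.0238) against 0.84 ± 0.412 without the block (adjusted p = 0.201).

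The tetraspanin Cd9 was not called in any comparison of all libraries and ranged from 173 to 414 CPM over the 15 libraries. After deletion its log2 fold change was -0.19 ± 0.138 (adjusted p = 0.328), or -0.34 ± 0.0999 without library 37 (adjusted p = 0.0273). Its untreated cultures split like those of Prom1: 414, 340 and 313 CPM in mice 19, 24 and 26, and 208 and 173 CPM in mice 35 and 36. With 4-OHT the same mice lay between 260 and 306 CPM. This split follows the numbering of the mice, and what the numbering stands for is not given in the sources used here.

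**Figure D3:**
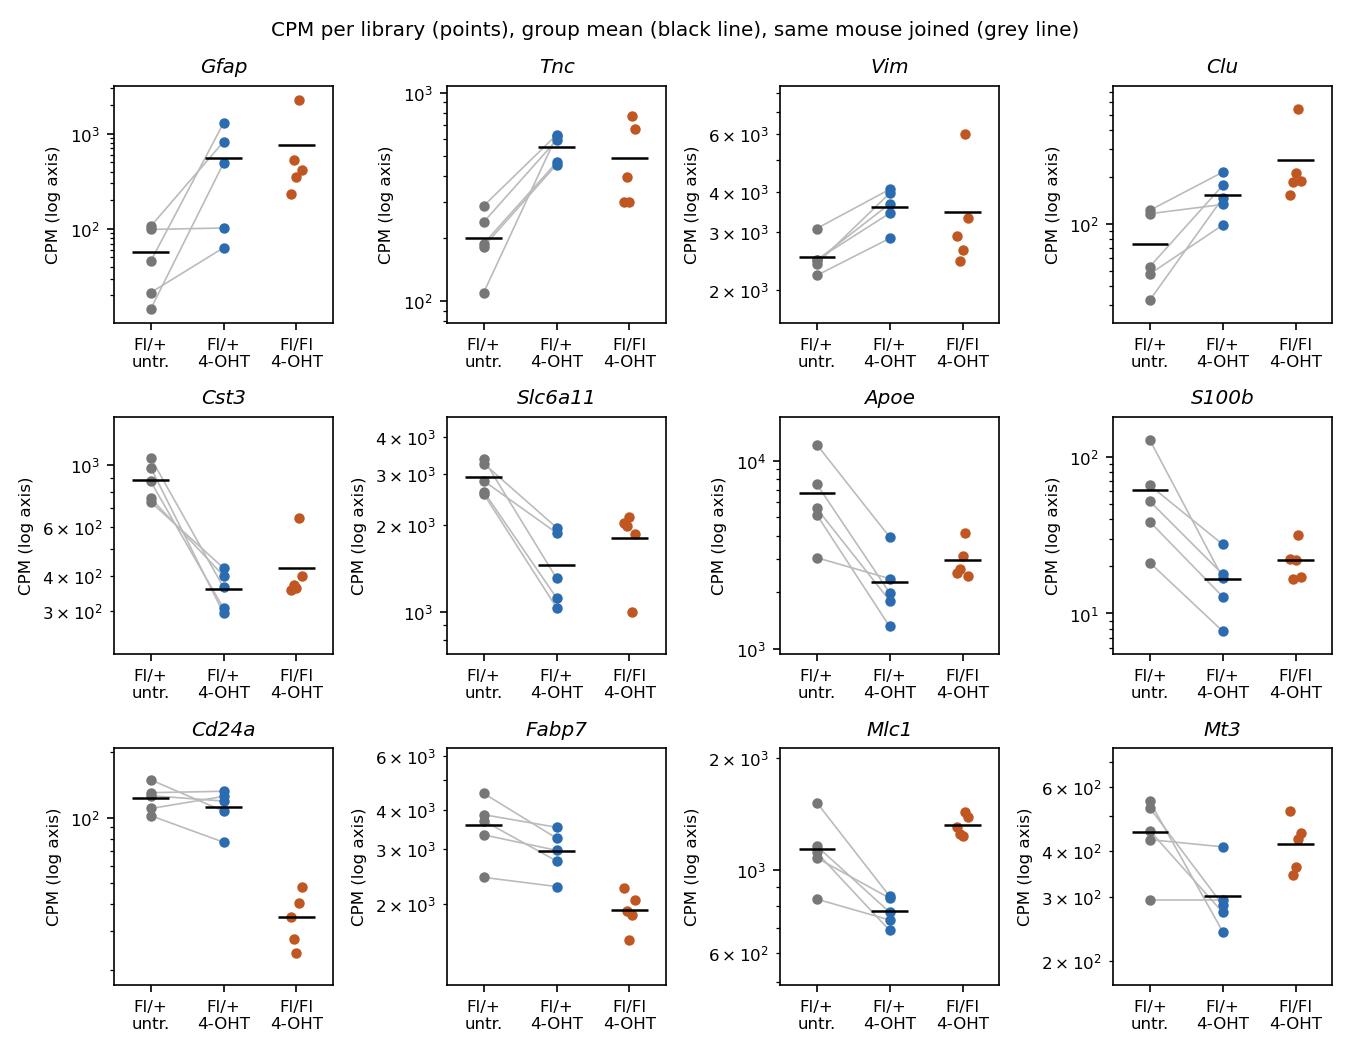
CPM of 12 of the genes in each library on log axes, with the group mean as a black line and the untreated and treated culture of the same Fl/+ mouse joined in grey. Gfap rises in every mouse but spreads from 63.2 to 1295 CPM with 4-OHT, Cst3 falls in every mouse without overlap, and Cd24a separates the Fl/Fl libraries (23.8 to 48.1 CPM) from all the others (77.0 to 149 CPM).

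Of the 9 transporters, channels and related enzymes through which astrocytes clear neurotransmitters and ions, 4 fell after 4-OHT (6.45% of all genes were called lower), none rose, and the median log2 fold change was -0.37. Slc1a3, the glutamate transporter GLAST of radial glia and stem cells, measured 2528, 2996, 2920, 3855 and 3785 CPM untreated and 1648, 2231, 1979, 1824 and 2377 with 4-OHT. Every treated library lay below every untreated one. Its log2 fold change was -0.70 ± 0.149 (adjusted p = 0.0113).

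In Fl/Fl 4-OHT, Slc1a3 measured 2104, 2667, 2372, 2521 and 2444 CPM, between the other groups in its mean but overlapping both. It differed from Fl/+ 4-OHT by 0.28 ± 0.116 (adjusted p = 0.0817, or 0.0481 with library size alone) and from Fl/+ untreated by -0.42 ± 0.131 (adjusted p = 0.0313). The latter call was lost without any of 6 single libraries, Fl/Fl 4-OHT 27, 29, 37 and 39 and Fl/+ untreated 35 and 36, with adjusted p up to 0.0825, and also with library size alone (0.0699) and with no filter on low counts (0.0543). Slc1a2, which encodes the other main glial glutamate transporter, GLT-1, was not called: its log2 fold changes were -0.08, 0.10 and 0.02 after deletion, 4-OHT and both.

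Slc6a11, the GABA transporter GAT-3 of astrocytes, fell further than Slc1a3. It measured 2553, 2832, 3251, 3360 and 2602 CPM untreated, 1034, 1872, 1954, 1306 and 1117 with 4-OHT, and 2031, 1979, 2129, 1002 and 1853 in Fl/Fl 4-OHT. The treated Fl/+ and the Fl/Fl libraries all lay below the untreated ones, and library 37 was the lowest of the Fl/Fl group. For Slc6a11 the log2 fold change was -1.02 ± 0.194 after 4-OHT (adjusted p = 0.0063) and -0.71 ± 0.187 in deletion plus 4-OHT (adjusted p = 0.0146), and after deletion it was 0.32 ± 0.239 (adjusted p = 0.336).

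Aqp4, the water channel of astrocyte endfeet, was not called in any comparison of all libraries. It measured 395, 310, 439, 361 and 187 CPM untreated, 437, 233, 276, 428 and 513 with 4-OHT, and 202, 207, 250, 547 and 256 in Fl/Fl 4-OHT. Library 37 alone of the Fl/Fl group exceeded 256 CPM. After deletion the log2 fold change was -0.35 ± 0.295 (adjusted p = 0.393) with library 37 and -0.72 ± 0.208 (adjusted p = 0.026) without it, after 4-OHT it was 0.13 ± 0.253 (0.775), and in deletion plus 4-OHT -0.22 ± 0.299 (0.61), or -0.58 ± 0.211 without library 37 (0.0669).

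Mlc1, a membrane protein of perivascular astrocytes, was the gene of the list with the largest rise after deletion. It measured 1115, 836, 1078, 1517 and 1160 CPM untreated, 689, 735, 841, 851 and 771 with 4-OHT, and 1306, 1246, 1233, 1430 and 1387 in Fl/Fl 4-OHT. The Fl/Fl libraries lay above all Fl/+ 4-OHT libraries and within the range of the untreated ones. Mlc1 had a log2 fold change of 0.78 ± 0.0852 after deletion (adjusted p = 0.000158, held in all 18 alternatives), -0.58 ± 0.144 after 4-OHT (adjusted p = 0.0229) and 0.20 ± 0.137 in deletion plus 4-OHT (adjusted p = 0.295). The unblocked call after 4-OHT was lost without Fl/+ 4-OHT 19, 24 or 36, with adjusted p up to 0.0662. With the mouse as a block the fall was -0.56 ± 0.112 (adjusted p = 0.00926).

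Of the remaining transport genes, Ttyh1, a membrane protein of neural progenitors, fell by 0.80 ± 0.241 on the log2 scale after 4-OHT (adjusted p = 0.0494, blocked 0.00531) and by 0.65 ± 0.183 in deletion plus 4-OHT (adjusted p = 0.0199). The first of these, in the fit without the block, was lost in 10 of its 19 alternatives, 8 of them leaving out 1 library. That unblocked call therefore sits at the threshold. Ttyh1 was lower with the drug in all 5 mice, with a blocked log2 fold change of -0.81 ± 0.142. Glul, the glutamine synthetase that recycles glutamate, had a log2 fold change of -0.37 ± 0.155 after 4-OHT (adjusted p = 0.137) and -0.37 ± 0.101 with the block (adjusted p = 0.0297), and was lower in all 5 mice. Atp1b2, a sodium pump subunit, and Slc4a4, a bicarbonate cotransporter, were not called in the tests of all libraries, with log2 fold changes from -0.18 to 0.38; Slc4a4 was called higher after deletion without Fl/+ 4-OHT 24 (0.30 ± 0.102, adjusted p = 0.0472) and Atp1b2 in deletion plus 4-OHT with library size alone (0.47 ± 0.164, adjusted p = 0.0478). After deletion Atp1b2 was 0.25 ± 0.163, and 0.08 ± 0.127 without library 37.

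In the unblocked fits the lipid, metabolic and calcium-binding proteins were the group with the largest share of falling genes: 5 of 9 after 4-OHT, with a median of -0.85, and 6 of 9 in deletion plus 4-OHT, with a median of -1.06, against 6.45% and 15.1% of all genes called lower. With the block 5 of the 9 fell after 4-OHT, as many as in the transport group, and 2 rose, against 11.9% and 13.8% of all genes. After deletion 1 of the 9 rose and 1 fell, against 16.8% and 15.0% of all genes, with a median of 0.27. Apoe measured 7504, 5166, 12176, 5570 and 3052 CPM untreated, 1985, 1316, 3929, 1806 and 2363 with 4-OHT, and 2532, 2661, 3121, 4128 and 2449 in Fl/Fl 4-OHT. Mouse 26 was the highest of both Fl/+ groups, and its treated culture overlapped the untreated range through mouse 36.

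Apoe was lower with the drug in all 5 mice, with log2 differences of -1.92, -1.97, -1.63, -1.62 and -0.37. Its fitted log2 fold change was -1.58 ± 0.37 after 4-OHT (adjusted p = 0.0178) and -1.18 ± 0.316 in deletion plus 4-OHT (adjusted p = 0.0157). After deletion it was 0.40 ± 0.262 (adjusted p = 0.266), and without Fl/+ 4-OHT 26 it was 0.69 (adjusted p = 0.0245).

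Cst3, which encodes the secreted protease inhibitor cystatin C, had the smallest adjusted p of the list after 4-OHT. It measured 873, 979, 1061, 761 and 737 CPM untreated, 306, 294, 364, 400 and 427 with 4-OHT, and 357, 372, 362, 644 and 399 in Fl/Fl 4-OHT. No treated library of either genotype reached the lowest untreated one. Its log2 fold change was -1.33 ± 0.14 after 4-OHT (adjusted p = 0.000398), -1.06 ± 0.181 in deletion plus 4-OHT (0.0016) and 0.27 ± 0.172 after deletion (0.254), where it was 0.06 ± 0.111 without library 37 (0.713).

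S100b, a calcium-binding protein of maturing astrocytes, had the largest fall of the list after 4-OHT, from a low level. It measured 38.5, 21.1, 52.0, 128 and 65.7 CPM untreated, 12.8, 7.72, 17.8, 16.9 and 27.6 with 4-OHT, and 22.3, 16.6, 21.8, 31.7 and 17.0 in Fl/Fl 4-OHT. The Fl/+ groups overlapped, since mouse 24 had 21.1 CPM untreated and mouse 36 had 27.6 CPM with 4-OHT. S100b was lower with the drug in all 5 mice, and the log2 fold change was -1.91 ± 0.454 after 4-OHT (adjusted p = 0.0187, or 0.0526 without Fl/+ 4-OHT 19) and -1.49 ± 0.398 in deletion plus 4-OHT (adjusted p = 0.0155). With the mouse as a block the fall after 4-OHT was -1.77 ± 0.226 (adjusted p = 0.00131).

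Pla2g7, a secreted phospholipase that hydrolyses platelet-activating factor, measured 1336, 1565, 1658, 1676 and 594 CPM untreated, 373, 741, 688, 633 and 415 with 4-OHT, and 656, 582, 668, 643 and 556 in Fl/Fl 4-OHT. Mouse 36 was the only untreated culture within the treated range. Pla2g7 had a log2 fold change of -1.28 ± 0.289 after 4-OHT (adjusted p = 0.0148) and -1.15 ± 0.234 in deletion plus 4-OHT (adjusted p = 0.00406), and both were called in every alternative.

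Ndrg2, an astrocyte protein of the NDRG family, measured 539, 634, 918, 704 and 637 CPM untreated, 299, 238, 489, 376 and 532 with 4-OHT, and 242, 207, 297, 516 and 268 in Fl/Fl 4-OHT. All treated libraries lay below all untreated ones, with 532 against 539 CPM at the margin. Ndrg2 had a log2 fold change of -0.85 ± 0.218 after 4-OHT (adjusted p = 0.0259) and -1.18 ± 0.237 in deletion plus 4-OHT (adjusted p = 0.0038). After deletion it was -0.32 ± 0.268 (adjusted p = 0.388), or -0.60 ± 0.218 without library 37 (adjusted p = 0.0594). The unblocked call after 4-OHT was lost without Fl/+ 4-OHT 19 or 35 or Fl/+ untreated 26, with adjusted p up to 0.0699. With the mouse as a block the fall was -0.89 ± 0.145 (adjusted p = 0.00363).

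Clu, the secreted chaperone clusterin, rose in deletion plus 4-OHT. It measured 53.1, 47.7, 122, 116 and 32.4 CPM untreated, 176, 98.1, 214, 133 and 146 with 4-OHT, and 153, 186, 213, 545 and 187 in Fl/Fl 4-OHT. The Fl/Fl libraries all exceeded the untreated ones, and library 37 was far above its group. In Clu the log2 fold change was 1.78 ± 0.446 in deletion plus 4-OHT (adjusted p = 0.0114), or 1.31 ± 0.353 without library 37 (adjusted p = 0.0212), and after 4-OHT it was 1.02 ± 0.355 (adjusted p = 0.0799, blocked 1.16 ± 0.251 with 0.0123). After deletion it was 0.76 ± 0.338 (adjusted p = 0.109), and 0.27 ± 0.193 without library 37.

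Fabp7 was lowest in the Fl/Fl libraries. It measured 3875, 2435, 3337, 3704 and 4538 CPM untreated, 3530, 2275, 2975, 2749 and 3256 with 4-OHT, and 2244, 1900, 1535, 1840 and 2053 in Fl/Fl 4-OHT. Each Fl/Fl library lay below each Fl/+ library, by the margin between 2244 and 2275 CPM. Fabp7 had a log2 fold change of -0.61 ± 0.131 after deletion (adjusted p = 0.00552, held in all 18 alternatives) and -0.91 ± 0.161 in deletion plus 4-OHT (adjusted p = 0.00194), whereas after 4-OHT it was -0.30 ± 0.167 (adjusted p = 0.26).

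Acsbg1, an acyl-CoA synthetase of glia, measured 689, 902, 937, 794 and 679 CPM in Fl/+ 4-OHT and 1317, 1023, 1022, 1055 and 1079 in Fl/Fl 4-OHT, without overlap. It was higher after deletion by 0.47 ± 0.121 (adjusted p = 0.0125, called in all 18 alternatives), and its untreated range of 799 to 1368 CPM held the Fl/Fl values. Aldh1l1, the folate enzyme widely used to mark astrocytes, was not called in the unblocked tests of all libraries; after deletion it was -0.20 ± 0.14 (adjusted p = 0.295), or -0.34 ± 0.115 without library 37 (adjusted p = 0.0463). With the block it was 0.26 ± 0.0815 higher after 4-OHT (adjusted p = 0.0451), and higher in all 5 mice.

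Among the matrix and secreted proteins and receptors only Tnc, 1 of 8, was called after 4-OHT without the block, against 13.8% of all genes, and none of the 8 was called after deletion, against 31.7%. Tnc encodes tenascin-C, a matrix protein of the stem cell niche and of reactive glia. It measured 287, 240, 183, 110 and 189 CPM untreated, 629, 594, 453, 622 and 464 with 4-OHT, and 300, 396, 301, 771 and 670 in Fl/Fl 4-OHT. Every treated library of both genotypes exceeded every untreated one, the Fl/Fl libraries 27 and 29 only just.

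For Tnc the log2 fold change was 1.43 ± 0.222 after 4-OHT (adjusted p = 0.00243), 1.26 ± 0.32 in deletion plus 4-OHT (0.0122, or 1.04 ± 0.3 with 0.0277 without library 37) and -0.16 ± 0.261 after deletion (0.664). After deletion it was -0.40 without library 37, -0.04 without library 29 and -0.31 without library 39, none of them called. Lrig1 was 0.22 ± 0.0753 higher in deletion plus 4-OHT (adjusted p = 0.0484), a call lost in 13 of 18 alternatives, including the omission of any single library. S1pr1, a receptor for sphingosine 1-phosphate, was at the threshold after 4-OHT with -0.45 ± 0.136 (adjusted p = 0.051) and was called with the block (-0.46 ± 0.105, adjusted p = 0.0154). In deletion plus 4-OHT it was -0.37 ± 0.148 (adjusted p = 0.0793), and it was called without library 37 (-0.49 ± 0.126, adjusted p = 0.016) and with the labelled sex or the mouse number series as a covariate. Thbs4, Sparc, Sparcl1, Ptprz1 and Gpr37l1 were not called in any comparison of all libraries, with log2 fold changes from -0.51 to 0.68. Ptprz1 was -0.44 ± 0.168 in deletion plus 4-OHT (adjusted p = 0.0686) and was called lower in 4 of 18 alternatives, such as without Fl/+ untreated 24 (adjusted p = 0.0202). Without library 37, Sparcl1 moved from 0.33 to -0.19 after deletion and from 0.68 to 0.16 in deletion plus 4-OHT.

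The transcription factors moved little. Nfia, a nuclear factor I protein needed for astrocyte formation, measured 252, 281, 276, 312 and 239 CPM untreated, 219, 247, 214, 263 and 222 with 4-OHT, and 209, 227, 220, 199 and 189 in Fl/Fl 4-OHT. All Fl/Fl libraries lay below all untreated ones, by a log2 fold change of -0.39 ± 0.0901 (adjusted p = 0.00755). After 4-OHT it was -0.25 ± 0.0979 (adjusted p = 0.116, blocked 0.0349), and it was lower in all 5 mice. The related Nfib and Nfix and the homeodomain-only protein Hopx were not called, with log2 fold changes from -0.22 to 0.31.

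**Figure D4:**
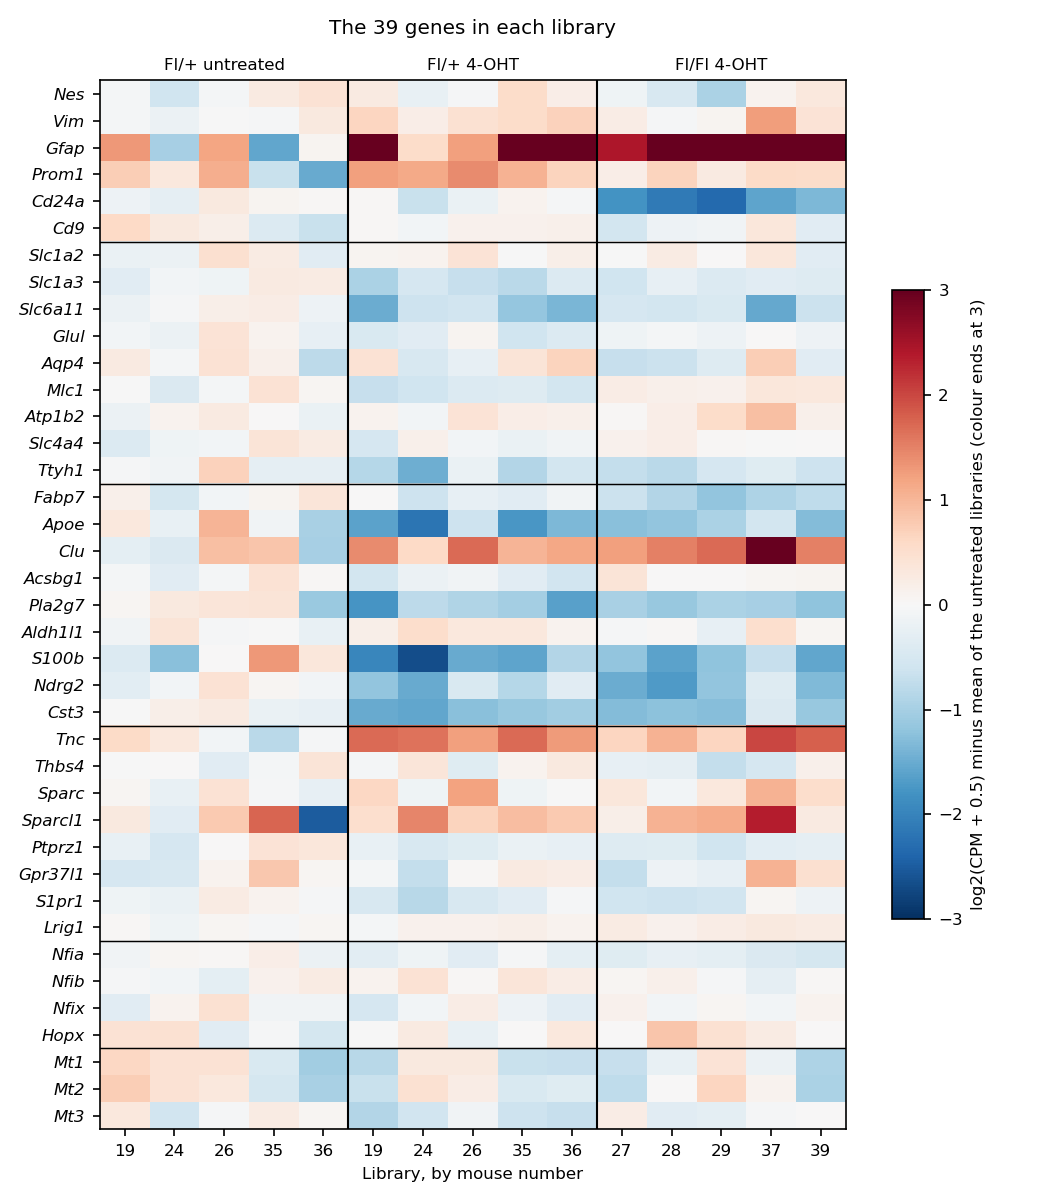
Each of the 39 genes (rows, divided by role) in each of the 15 libraries (columns, by group and mouse number), as log2(CPM + 0.5) minus the mean of the untreated libraries, with colours ending at 3. Red marks Gfap, Clu and Tnc in most treated libraries, blue marks Apoe, Pla2g7, S100b, Ndrg2 and Cst3, and Cd24a is blue in the Fl/Fl libraries.

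Metallothioneins are small cysteine-rich proteins that bind zinc and copper; Mt1 and Mt2 are widely induced by metals, whereas Mt3 is mostly a brain protein. The stretches upstream of their starts are shown as a description. Mt3 was called in comparisons in which Mt1 and Mt2 were not, but a difference between these genes was not tested. After 4-OHT the log2 fold changes were -0.38 ± 0.342 for Mt1, -0.25 ± 0.326 for Mt2 and -0.61 ± 0.183 for Mt3. The stretches come from RefSeq (GRCm38.p6, plus strand) and run 5′ to 3′, with matches to the metal response element, written here as TGCACNC or TGCGCNC on either strand, in capitals. Mt1 is chr8:94178839-94179081, Mt2 is chr8:94172368-94172617 and Mt3 is chr8:94152357-94152606, and annotated exon bases of each gene were left out.
Mt1: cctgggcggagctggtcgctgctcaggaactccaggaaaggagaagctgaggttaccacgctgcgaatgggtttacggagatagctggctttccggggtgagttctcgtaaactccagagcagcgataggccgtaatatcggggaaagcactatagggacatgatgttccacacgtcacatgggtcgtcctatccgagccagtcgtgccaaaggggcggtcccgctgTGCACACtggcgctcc
Mt2: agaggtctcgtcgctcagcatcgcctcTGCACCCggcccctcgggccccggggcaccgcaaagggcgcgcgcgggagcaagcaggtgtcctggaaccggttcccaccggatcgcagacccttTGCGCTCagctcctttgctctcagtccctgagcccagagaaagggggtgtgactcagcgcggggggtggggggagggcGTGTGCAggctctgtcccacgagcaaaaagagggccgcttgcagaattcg
Mt3: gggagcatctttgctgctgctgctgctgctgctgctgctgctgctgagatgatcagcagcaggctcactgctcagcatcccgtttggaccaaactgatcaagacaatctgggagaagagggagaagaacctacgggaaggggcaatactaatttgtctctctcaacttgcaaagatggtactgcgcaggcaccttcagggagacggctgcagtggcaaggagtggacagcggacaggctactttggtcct

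Within these stretches the letters matched 1 time for Mt1, 3 times for Mt2 and not at all for Mt3. Of all 32851 promoters in the table, 21.4% held at least 1 such match in the same 250 bases and 1.26% held 3 or more. Of the 39 genes 32 were in the table, with 43 promoters, of which 8 (18.6%) had a match. A match is a description of the letters and not a bound site, and a window without a match says nothing of the factor.

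Mt1 and Mt2 kept company from library to library without following the groups. Mt1 measured 1165, 1023, 1035, 556 and 371 CPM untreated, 428, 929, 926, 477 and 467 with 4-OHT, and 468, 652, 1010, 678 and 398 in Fl/Fl 4-OHT. Mt2 measured 677, 545, 509, 282 and 208, then 254, 560, 472, 296 and 313, then 239, 411, 634, 435 and 211 CPM. In both genes mice 35 and 36 were the lowest of the untreated group and library 29 was the highest of the Fl/Fl group. Neither was called, with log2 fold changes of 0.00 and 0.04 after deletion and -0.38 and -0.25 after 4-OHT.

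Mt3 measured 547, 294, 430, 525 and 455 CPM untreated, 241, 294, 411, 285 and 272 with 4-OHT, and 514, 345, 361, 431 and 447 in Fl/Fl 4-OHT. All groups overlapped. It was lower after 4-OHT by -0.61 ± 0.183 (adjusted p = 0.0491, blocked 0.0402), with log2 differences of -1.18, -0.00, -0.07, -0.88 and -0.74 in the 5 mice, and higher after deletion by 0.50 ± 0.154 (adjusted p = 0.0301). Both calls were fragile: the first was lost in 9 of 19 alternatives, among them the omission of Fl/+ 4-OHT 19, 24, 35 or 36 or of Fl/+ untreated 19, 26, 35 or 36. The second was lost in 8 of 18, among them the omission of Fl/+ 4-OHT 19, 24, 35 or 36 or of Fl/Fl 4-OHT 27, 37 or 39. The metallothioneins are similar in sequence, and reads that fit more than 1 gene were not counted.

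The promoters of the list were also searched for the GC box GGGCGG, the letters that transcription factors of the Sp family bind, on either strand. A match was present in 20 of the 43 promoters (46.5%) and in 32.7% of all promoters. It was found for 18 of the 32 genes, with the most matches, 4, for Ndrg2, and among the metallothioneins only for Mt1, with 2. The motifs were searched separately, and matches of different motifs may overlap. The nuclear factor I site, TTGGC and GCCAA with 5 bases between them, was found in none of the 43 and in 0.0365% of all promoters.

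A further 32 genes of stem cells, astrocytes and reactive astrocytes were read beside the list, of which 31 were tested. After deletion 1 of them rose, the glycolytic enzyme Aldoc (0.38 ± 0.0787, adjusted p = 0.00439), and 3 fell: the Notch target Hes5 (2.01-fold lower, from a mean of 20.3 to 9.94 CPM, adjusted p = 0.0176), the endothelin receptor Ednrb (log2 fold change -0.41 ± 0.137, 0.0426) and the stem cell factor Sox2 (-0.33 ± 0.1, 0.0268). Their called share was 12.9%, again under the 31.7% of all genes. The median log2 fold change was 0.06.

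After 4-OHT 2 of these genes rose and 9 fell, 35.5% of those tested, against 13.8% of all genes (7.34% higher, 6.45% lower). The metalloproteinase inhibitor Timp1, a gene of reactive astrocytes, rose by 2.82 ± 0.409 (adjusted p = 0.0017) and the deiodinase Dio2 by 1.58 ± 0.192 (0.000822). The largest falls were those of the gap junction gene Gjb6 (-1.93 ± 0.47, 0.0209), Hes5 (-1.87 ± 0.338, 0.00517) and Id4, a regulator that keeps stem cells at rest (-1.54 ± 0.252, 0.00318). Gjb6 was low, with a mean of 1.92 CPM untreated and 0.51 CPM with 4-OHT, and its groups overlapped. In mouse 36 it was slightly higher with the drug (a log2 difference of 0.14). With the block 5 of the genes read beside the list rose and 15 fell, 64.5% against 25.7% of all genes. In deletion plus 4-OHT 3 rose and 12 fell, 48.4% against 30.7%, led by Timp1 (3.69 ± 0.501, 0.00049), the complement gene C4b (1.97 ± 0.503, 0.0127) and Dio2 (1.24 ± 0.258, 0.00457) among the rises, and by Hes5 (-2.88 ± 0.363, 0.000322), Gjb6 (-1.75 ± 0.464, 0.015) and the amino acid transporter Slc7a10 (-1.44 ± 0.313, 0.00558) among the falls. The groups did not overlap in Timp1 and Hes5 and overlapped in C4b, Dio2, Gjb6 and Slc7a10. Gjb6 averaged 0.574 CPM in Fl/Fl 4-OHT. Library 37 was the highest of the Fl/Fl group in Timp1 (93.9 CPM, others 14.4 to 39.9) and C4b (127 CPM, others 34 to 77.6).

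The reactive astrocyte gene Serpina3n ran from 24.8 to 42.1 CPM in libraries 27, 28, 29 and 39 and reached 572 CPM in library Fl/Fl 4-OHT 37. That library also led its group in Gfap, Vim, Aqp4, Clu, Cst3 and Sparcl1 and, among other genes, in Timp1, C4b and Cd44. Lcn2, another such gene, measured 3.91 CPM in that library and at most 0.14 CPM in the others of the group. Serpina3n was not called in any comparison without the block, and Lcn2 was too low to be tested. With the block Serpina3n was called higher after 4-OHT (1.85 ± 0.467, adjusted p = 0.0224), with 4 mice higher and 1 lower. Of 8 markers of the oligodendrocyte lineage 5 rose after 4-OHT, against 7.34% of all genes, with a median log2 fold change of 1.38, while their summed level was 3276 to 3967 CPM untreated and 2999 to 4073 CPM with 4-OHT. In deletion plus 4-OHT 5 of the 8 rose and 1 fell, against 15.7% and 15.1% of all genes, with a median of 1.57 and a summed level of 3129 to 4481 CPM in Fl/Fl 4-OHT, and the part of this in the falls of the astrocyte genes was not tested.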

How the data were processed

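Raw counts per gene were analysed as deposited: per the labels and the study's methods, the authors made stranded mRNA libraries, sequenced them as single reads, aligned them with STAR 2.5.4b to GRCm38 and counted uniquely mapped reads with featureCounts 1.5.0 against Ensembl annotation, which drops reads shared by near-identical genes. Counts were normalised by TMM and tested with edgeR 4.0.16 (R 4.3.3), quasi-likelihood F test, 5 libraries against 5, genes passing a minimum count of 10, Benjamini-Hochberg adjustment over all genes tested, and a threshold of 0.05. The test was also run on simulated counts with known changes, and the outcome is not reported here. CPM values are TMM-scaled over all 15 libraries, and log2 levels used a pseudocount of 0.5. Of 53801 identifiers 53706 matched the gene annotation, and of the 39 genes only Aldh1l1 (105 bases) and Glul (93 bases) overlap another gene on the same strand.

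The Fl/+ groups come from the same mice, and the deviations of same-mouse cultures from their group means correlated by 0.204 to 0.586 over 15427 genes (other mice, -0.489 to 0.316), so the mouse was added as a replicate block in an alternative fit. P-values measure the spread between these cultures. The 39 genes, the lists and the tests were chosen with earlier results of these data known. Values for each library were planned for called genes with a log2 change of at least 1 and a mean of at least 1 CPM, at most 8 per comparison, and for Nes, Gfap, Slc1a3 and Aqp4; of other genes read beside the list, the 3 largest called rises and falls were planned. Those of other genes, and the libraries singled out, were chosen after their values were seen. Alternatives were a DESeq2 1.42.0 test, other scalings, filters and covariates, and leaving out each library.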

Additional observations from a re-analysis of the deposited data

Results flagged for a closer look

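Of 117 groups of 5 libraries (39 genes in 3 groups), 11 held a library set apart from the other 4 by a gap that is large for the range of the group; chance gives about 1 in 20. Of the 11, 7 concern library Fl/Fl 4-OHT 37. It was highest in Vim (6025 CPM, others 2450 to 3323), Gfap (2267, others 234 to 529), Aqp4 (547, others 202 to 256), Clu (545, others 153 to 213), Cst3 (644, others 357 to 399) and Sparcl1 (441, others 97.1 to 187), and lowest in Slc6a11 (1002, others 1853 to 2129). The other 4 were Ttyh1 in Fl/+ untreated 26 (2005 CPM, others 1033 to 1210), Acsbg1 in Fl/Fl 4-OHT 27 (1317, others 1022 to 1079), Aldh1l1 in Fl/+ untreated 24 (1918, others 1264 to 1443) and Lrig1 in Fl/+ 4-OHT 19 (727, others 821 to 851).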

How the results depend on the processing

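Cd24a, Mlc1, Fabp7 and Acsbg1 after deletion, Slc1a3, Slc6a11, Apoe, Pla2g7, Cst3 and Tnc after 4-OHT, and 13 of the 15 genes called in deletion plus 4-OHT (all but Slc1a3 and Lrig1) were called in every alternative run. With the replicate block, which pairs the Fl/+ cultures of a mouse, 6 genes were higher and 13 lower after 4-OHT in place of 3 and 10, and no call was lost. Leaving out 1 library gave 2 to 5 genes higher and 3 to 6 lower after deletion (3 and 3 with all libraries), 1 to 3 higher and 5 to 10 lower after 4-OHT (3 and 10), and 3 higher and 10 to 12 lower in deletion plus 4-OHT (4 and 11). The cause of these changes was not tested. No called gene changed sign in any alternative. Among genes not called, leaving out 1 library changed the sign of the log2 fold change, over these ranges, after deletion for Vim (-0.34 to 0.06), Gfap (-0.52 to 1.05), Slc1a2 (-0.17 to 0.00), Pla2g7 (-0.00 to 0.24), Sparc (-0.12 to 0.37), Sparcl1 (-0.19 to 0.51), Gpr37l1 (-0.09 to 0.40), S1pr1 (-0.06 to 0.17), Mt1 (-0.23 to 0.17) and Mt2 (-0.23 to 0.22). After 4-OHT it did so for Nes (-0.01 to 0.23), Cd9 (-0.17 to 0.14), Aqp4 (-0.03 to 0.27), Thbs4 (-0.02 to 0.22), Gpr37l1 (-0.24 to 0.14) and Hopx (-0.13 to 0.15), and in deletion plus 4-OHT for Prom1 (-0.06 to 0.50), Slc1a2 (-0.06 to 0.16), Slc4a4 (-0.05 to 0.14), Aldh1l1 (-0.08 to 0.16), Gpr37l1 (-0.20 to 0.38), Nfib (-0.09 to 0.04) and Nfix (-0.09 to 0.12). The other reversals, all of genes not called, were Mt1 after deletion (-0.01 with the DESeq2 Wald test, -0.01 with DESeq2 size factors, -0.00 with no filter, -0.01 with a dispersion shared by all 15 libraries), Cd9 after 4-OHT (0.03 with library size alone, 0.04 with a covariate for the mouse number series, 0.04 with the replicate block), Hopx after 4-OHT (-0.00 with DESeq2 size factors), Nfib in deletion plus 4-OHT (0.07 with library size alone) and Nfix there (0.08 with library size alone, 0.00 with at least 10 counts in every library, 0.01 with sex as a covariate).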
